A study of Homo sapiens with 3 samples.

Results

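The DNA replication licensing and fork genes are 44 genes for the proteins that mark replication origins, load and start the replicative helicase, and copy DNA at the fork. They were taken by gene name from the 41749 gene names on the arrays, and each was read by its brightest non-control probe, that is, the probe whose mean over all 3 arrays was highest. The rule for choosing them used no measured value, but the list was drawn up with earlier results of these data known. Before S phase, the origin recognition complex, CDC6 and CDT1 load the ring of MCM proteins onto DNA, a step called licensing. The kinase CDC7 with its partner DBF4, together with CDC45 and the GINS proteins, then turns the loaded ring into a moving helicase, behind which DNA polymerases, the PCNA clamp and its loader copy both strands. Transcription of many of these genes rises before S phase under E2F factors, and in colorectal carcinoma cells their products serve as markers of proliferating cells.

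The cells were of the HCT116 line, which comes from a human colorectal carcinoma and was grown in McCOY's medium with serum. The question was which genes depend on PRMT1, the arginine methyltransferase that places an asymmetric dimethyl mark on histone H4. The control group, labelled PRMT1-NC and written NC, had 1 array. The knockdown groups, labelled PRMT1-KD1 and PRMT1-KD2 and written KD1 and KD2, had 1 array each, and nothing but the knockdown distinguishes them from NC in the labels. Knockdowns of SMARCA4, also named in the design, were not analysed here. The protocol names 2 siRNAs against PRMT1 but does not say which was used for KD1 and which for KD2, nor how long after transfection RNA was taken. The results text of the study speaks of short hairpin RNAs instead, so which reagent the arrays rest on is not settled here. The siRNAs are shown, 5′ to 3′ as given, because they are the reagents the labels name.
PRMT1 siRNA-1: cugaaguccaggucgauggugaaguc
PRMT1 siRNA-2: uuguagucuuuguacugcc

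Each group had 1 array, so no value below has a replicate error and no difference was tested. Values are log2 of the background-corrected intensity relative to the 75th percentile of the same array, and changes are differences of these log2 values. A gene past 1.5-fold, a log2 difference beyond 0.585, was counted as lower or higher. This is the fold used in the study's methods, whose p-value needs replicate arrays. The share of all genes past the same fold is the background for each count. PRMT1 itself had a log2 signal of 6.01 on NC, 2.75 on KD1 and 1.45 on KD2, so that 10.4% of the NC signal was left in KD1 and 4.24% in KD2. Between 40.8% and 42.5% of the 58201 non-control probes were well above background, with no saturated non-control spot. Of 10 intestinal epithelial markers, 6 were above background on every array, among them EPCAM, CDH1 and CDX2, while KRT20, VIL1, CDH17 and CEACAM5 were above background on none. Of the other lineages, COL1A1 among 6 fibroblast markers and CD14 among 4 blood markers on the arrays were above background on all arrays, and PTPRC on KD2 alone. COL1A1 was higher than on NC by 0.28 log2 units on KD1 and 0.62 on KD2, and its part in the results was not tested.

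All 44 replication genes were above background on all 3 arrays, through 59 probes, of which 1 was above background on none. The probes are 60 bases long, and 6 of the brightest ones span more genome than their length, as a probe across a splice junction does. Those of MCM5 and PRIM1 are printed because these genes lay farthest from NC among the genes with such a probe. The MCM5 probe lies at chr22:35819307-35820178 (hg19, plus strand) and the PRIM1 probe at chr12:57132284-57133111 (hg19, minus strand).
MCM5 probe: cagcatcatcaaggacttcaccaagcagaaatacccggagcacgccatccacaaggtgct
PRIM1 probe: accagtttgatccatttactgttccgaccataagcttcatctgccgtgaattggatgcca

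Promoters are shown for CDT1, DBF4 and PRIM1, which had the lowest mean change over both knockdowns among the members in the promoter table used here. MCM5, which lay lower in both, had no entry in that table. Each is the 250 bases before the annotated start, read 5′ to 3′ along the gene, in build GRCh38.p14. CDT1 lies at chr16:88803539-88803788 (plus strand), DBF4 at chr7:87876243-87876492 (plus strand) and PRIM1 at chr12:56752324-56752573 (minus strand). Capitals mark every match to the motifs searched.
CDT1: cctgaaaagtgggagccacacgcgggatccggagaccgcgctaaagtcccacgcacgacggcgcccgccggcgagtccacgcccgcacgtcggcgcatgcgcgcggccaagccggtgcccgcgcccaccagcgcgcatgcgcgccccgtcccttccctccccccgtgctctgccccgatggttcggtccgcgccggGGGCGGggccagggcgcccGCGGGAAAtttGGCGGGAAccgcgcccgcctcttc
DBF4: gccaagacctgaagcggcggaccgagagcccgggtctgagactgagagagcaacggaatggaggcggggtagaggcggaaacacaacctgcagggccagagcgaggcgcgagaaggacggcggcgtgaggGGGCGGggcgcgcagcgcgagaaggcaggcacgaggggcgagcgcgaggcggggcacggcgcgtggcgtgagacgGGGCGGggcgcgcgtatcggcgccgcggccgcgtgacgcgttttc
PRIM1: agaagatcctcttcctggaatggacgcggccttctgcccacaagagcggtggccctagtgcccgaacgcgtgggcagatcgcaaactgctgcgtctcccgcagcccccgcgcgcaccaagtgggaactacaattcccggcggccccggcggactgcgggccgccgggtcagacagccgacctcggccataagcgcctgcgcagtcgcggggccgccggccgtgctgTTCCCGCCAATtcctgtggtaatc

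The CDT1 promoter held an E2F match (GCGGGAAA) 35 bases before the start, the variant GGCGGGAA 24 bases before it and a GC box 54 bases before it. The DBF4 promoter held 2 GC boxes, 120 and 45 bases before the start. In the PRIM1 promoter the variant, read as TTCCCGCC, began 24 bases before the start and overlapped a CCAAT box that began at 18. Each match is a description of letters and does not show that a factor binds there.

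In KD1, 4 of the 44 genes, or 9.09%, were lower past 1.5-fold, where 12.8% of all 19231 genes counted were. None of the 44 was higher, where 13.2% of all genes were. In KD2, 7 genes, or 15.9%, were lower against 10.7% of 19421 genes, and again none was higher against 9.56%. In the main setting the share lower was thus somewhat under the background in KD1 and somewhat over it in KD2. No gene was past the fold on the higher side in either. With normexp background correction the counts lower were again 4 and 7, beside 4.64% and 4.96% of all genes. Both shares were then over the background. Among genes above background on both arrays compared, 10.9% were lower and 12.5% higher in KD1, and 9.80% and 8.20% in KD2. KD1 and KD2 were both set against the same NC array, so their values stand side by side and do not count as separate evidence. In RNA from whole cultures, fewer cells in S phase and less RNA of these genes per cell cannot be told apart.

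**Figure D1:**
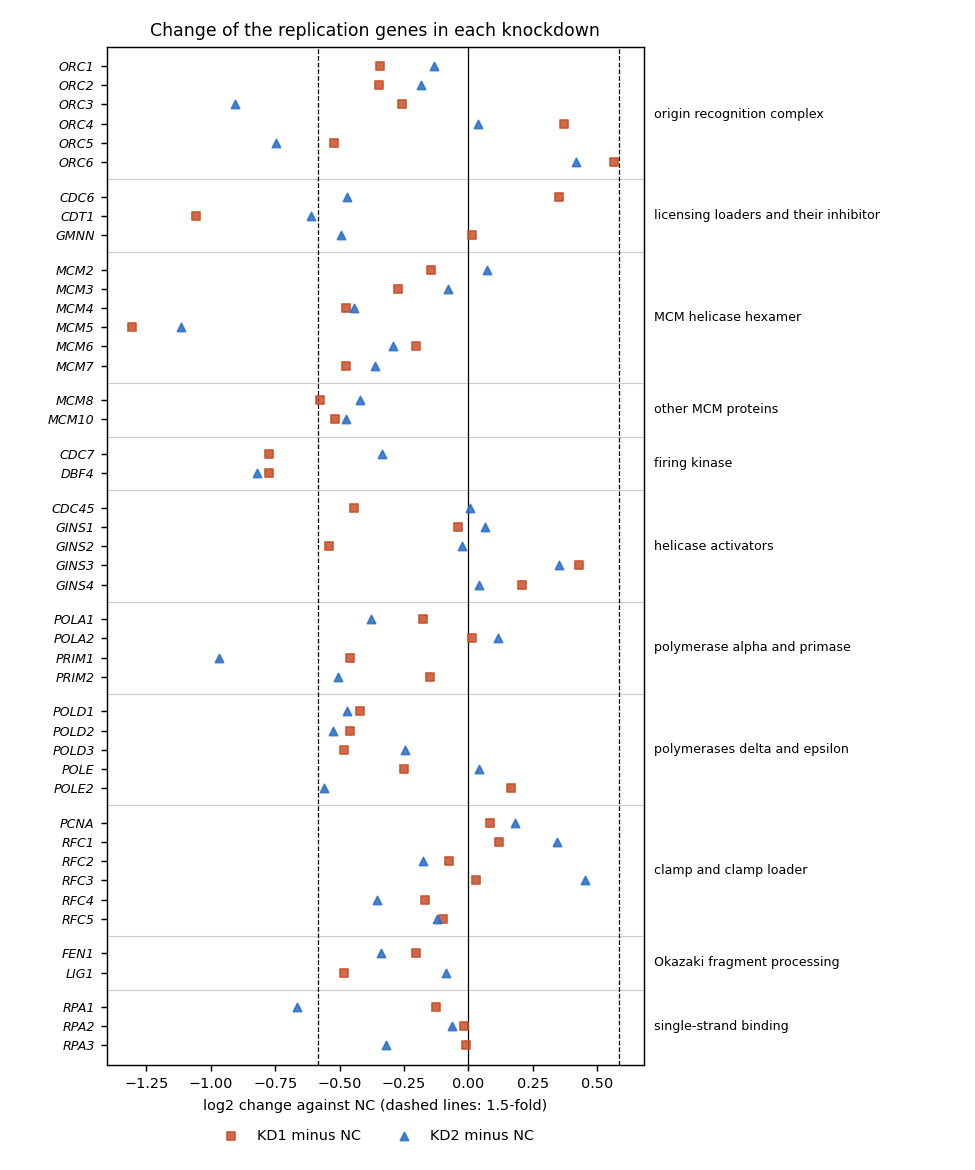
Change of each of the 44 genes against NC (log2, x axis) in KD1 (squares) and KD2 (triangles), 1 array per group, grouped by role, with dashed lines at 1.5-fold. In KD1, 4 genes lie left of the left line and 0 right of the right line, and in KD2 these counts are 7 and 0.

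The changes ran from -1.31 to 0.56 in KD1 and from -1.12 to 0.45 in KD2. Their median was -0.20 in KD1 and -0.31 in KD2, beside -0.04 and -0.05 for all genes counted; the KD1 median turned positive, to 0.41 with spike-in scaling and 0.19 with the unscaled deposited values, which moved the median of all genes by 0.61 and 0.39. Relative to the median of all genes the replication genes stood at -0.16 in KD1 and -0.26 in KD2. These scalings in effect apply 1 factor per array, so they could not change that difference. In KD1, 33 genes had a change below 0 and 11 above, and in KD2 32 and 12. Across all genes, 53.6% and 54.7% had a change below 0. The spread among the replication genes, as a robust SD, was 0.37 in KD1 and 0.35 in KD2, beside 0.50 and 0.43 for all genes. All genes include some that were dim on 1 array. Among the 17054 genes above background on all 3 arrays, as the 44 are, the spread was 0.48 and 0.41. The KD1 shift relative to all genes was -0.09 with normexp background correction and vanished (0.005) with no filter on dim probes, where 21 of the 44 genes lay below the median of all genes. In KD2 it was -0.24 and -0.16 under these settings.

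**Figure D2:**
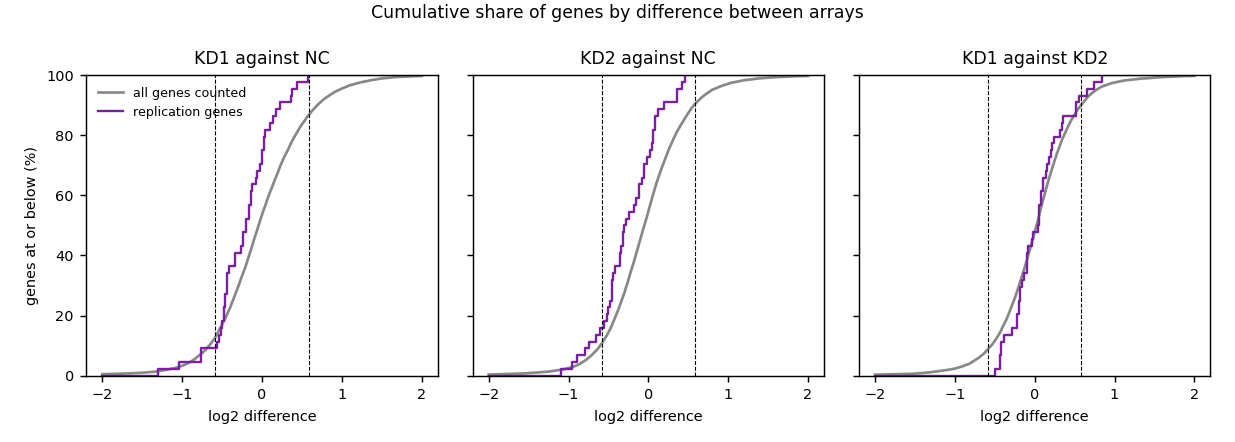
Share of genes (%, y axis) at or below each log2 difference (x axis) for the 44 replication genes (purple steps) and all genes counted (grey line) in each pair of arrays, with dashed lines at 1.5-fold. The purple steps lie to the left of the grey line over most of the range against NC, with medians of -0.20 and -0.31 beside -0.04 and -0.05, and there they reach 100% before the right dashed line.

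Of the origin recognition complex, the 6-subunit platform to which the helicase loaders bind, no member was past 1.5-fold in KD1 and 2 were lower in KD2. ORC3 had a log2 signal of 2.80 on NC, 2.54 on KD1 and 1.90 on KD2. It was thus near NC in KD1 (-0.26) and lower in KD2 (-0.90, 53.4% of NC). ORC5 had 4.49 on NC, 3.97 on KD1 and 3.74 on KD2, with changes of -0.52 and -0.75. The call of ORC5 in KD2 was lost with spike-in scaling, where the change was -0.46. ORC1, a subunit whose amount varies over the cell cycle, had changes of -0.34 and -0.13, and ORC2 of -0.35 and -0.19. ORC4 stood at 0.37 and 0.04, and ORC6, the subunit that is held least tightly, at 0.56 and 0.42. ORC6 in KD1 was the member closest below 1.5-fold on the higher side.

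A further probe of ORC3 differed most from the brightest one. This dimmer probe, at chr6:88362873-88362932 (hg19), had a log2 signal of 0.65 on NC, -1.28 on KD1 and -1.35 on KD2, changes of -1.93 and -2.00. The brightest ORC3 probe, at chr6:88376916-88376975, is assigned by the array design to another ORC3 transcript. Whether ORC3 was past 1.5-fold in KD1 therefore depends on the probe. Its spread between probes, 1.67 in KD1, was far above the median spread of 0.40 among the 12 members with several measured probes. The probes of ORC5 lay 0.07 apart in KD1, while those of ORC2 had opposite signs in KD1, -0.35 and 0.49.

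**Figure D3:**
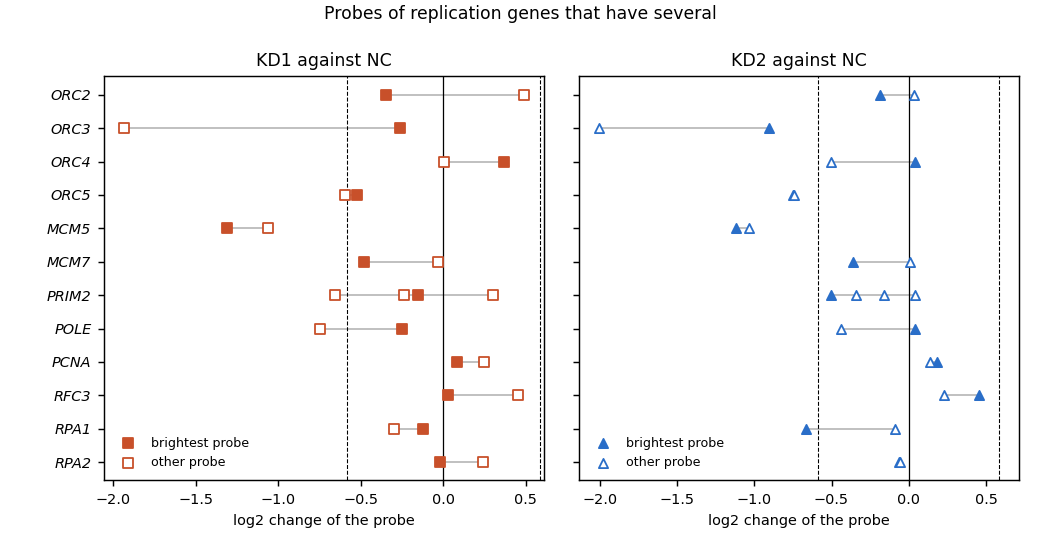
Log2 change against NC (x axis) of every measured probe of the 12 replication genes with several, with the brightest probe filled and the others open, 1 array per group. Both MCM5 probes lie past the 1.5-fold line in both panels, and the open ORC3 probe lies near -2.0 in both.

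Among the licensing loaders, CDT1, which brings the MCM ring to the origin, was lower past 1.5-fold in both knockdowns. Its probe, at chr16:88875606-88875665 (hg19, plus strand), had a log2 signal of 7.10 on NC, 6.04 on KD1 and 6.48 on KD2. KD1 had 48.1% of the NC signal, a log2 change of -1.06, and KD2 had 65.4%, a change of -0.61. In KD2 CDT1 was the gene just inside the fold, and 7 of 12 other ways of processing the arrays kept its call there, against 11 of 12 in KD1. Among the 12, the stricter filter and no filter on dim probes could not lose a call of any replication gene. All of these genes were above background on every array. Nor could the mean over probes for a gene with 1 probe, such as CDT1. CDC6, the ATPase that loads the ring with CDT1, had -1.48 on NC, -1.13 on KD1 and -1.96 on KD2. It was thus on opposite sides of NC, at 0.35 in KD1 and -0.47 in KD2, neither past 1.5-fold. GMNN (geminin), the inhibitor of CDT1, had changes of 0.02 and -0.49.

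Of the 6 subunits of the MCM hexamer, the ring that unwinds DNA, MCM5 was lower past 2-fold in both knockdowns and the other 5 were past 1.5-fold in neither. With spike-in scaling MCM5 was short of 2-fold in both, at -0.70 and -0.83, and with the unscaled deposited values in KD1, at -0.92. The MCM5 probe had a log2 signal of 5.92 on NC, 4.61 on KD1 and 4.80 on KD2. These values left 40.4% of the NC signal in KD1 and 46.1% in KD2, changes of -1.31 and -1.12. A further MCM5 probe, at chr22:35813789-35813848 (hg19, plus strand), gave 3.76, 2.70 and 2.73, changes of -1.06 and -1.04. Both probes thus put both knockdowns below NC by more than 2-fold. From the lowest change, MCM5 was number 284 of 19231 genes in KD1 and number 362 of 19421 in KD2.

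The other subunits changed by -0.14 and 0.07 (MCM2), -0.27 and -0.08 (MCM3), -0.48 and -0.44 (MCM4), -0.20 and -0.29 (MCM6) and -0.48 and -0.36 (MCM7) in KD1 and KD2. MCM5 lay 0.83 below the lowest of them in KD1 and 0.67 in KD2 on the log2 scale. Scaling by 1 factor per array or filtering dim probes cannot move this difference. It moved with normexp correction, quantile normalization, the mean over a gene's probes and subtraction of the brightness trend. Under these it ran from -0.83 to -0.71 in KD1, and in KD2 from -0.67 to -0.61. The brightest probes of subunits that assemble in equal numbers thus gave unequal changes on these arrays. Whether their mRNAs differ in change was not tested, with 1 array per group. Probes of the same gene also differed in KD1, by 0.45 for MCM7, 0.24 for MCM5 and 1.67 for ORC3. A dimmer MCM7 probe gave -0.03 and 0.01, nearer to 0 than the brightest one. MCM8, which acts in a recombination helicase, had changes of -0.57 and -0.42, the former just short of 1.5-fold. MCM10, which helps to start the loaded ring, had -0.52 and -0.48.

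**Figure D4:**
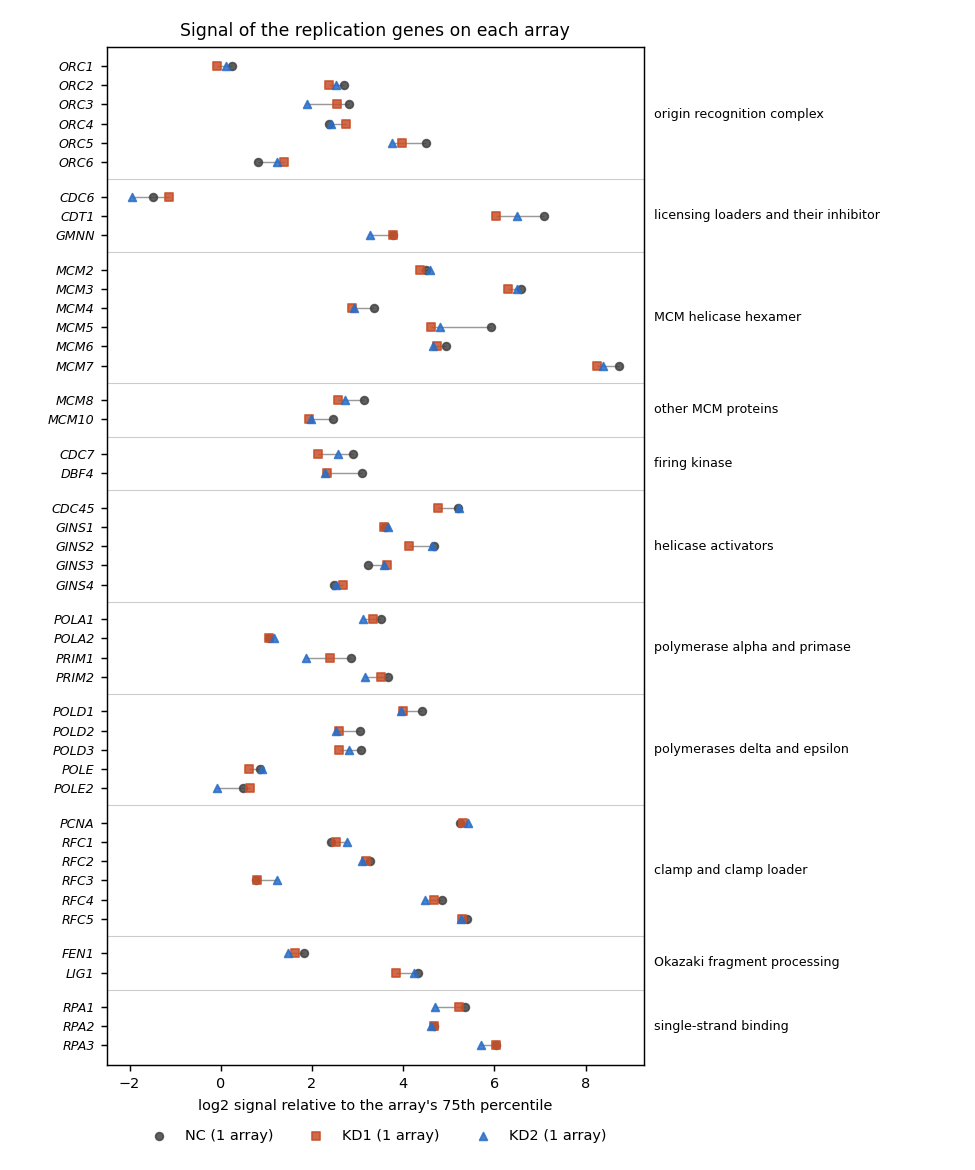
Log2 signal relative to the array's 75th percentile (x axis) of each of the 44 genes on the NC (circle), KD1 (square) and KD2 (triangle) array, with a grey line over their range. Positions can be compared along a row but not between rows, since each gene has its own probe, and the widest row is MCM5, from 5.92 on NC to 4.61 on KD1.

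The kinase that fires licensed origins was lower in both its parts in KD1. CDC7, the catalytic subunit, had a log2 signal of 2.91 on NC, 2.13 on KD1 and 2.57 on KD2. DBF4, the subunit that activates it, had 3.10 on NC, 2.33 on KD1 and 2.29 on KD2. CDC7 was past 1.5-fold in KD1 (-0.77, 58.4% of NC) and not in KD2 (-0.34), while DBF4 was past it in both (-0.78 and -0.82, 58.4% and 56.7% of NC). Both were the members just inside the fold in KD1, and both lost that call there with spike-in scaling, CDC7 at -0.16 and DBF4 at -0.16, and with the unscaled deposited values. DBF4 also lost it in KD1 with the mean over its probes. In KD2 the DBF4 call was lost with spike-in scaling and with that mean (-0.49). The other DBF4 probe was above background on no array. Of the activators that join the ring, CDC45 had changes of -0.45 and 0.01, GINS1 of -0.04 and 0.06, GINS2 of -0.54 and -0.03, GINS3 of 0.43 and 0.35 and GINS4 of 0.21 and 0.04. None of these 5 was past 1.5-fold, and their median was -0.04 in KD1 and 0.04 in KD2.

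At the fork, PRIM1, the catalytic subunit of the primase that makes the RNA primers, was lower past 1.5-fold in KD2. Its log2 signal went from 2.84 on NC to 2.39 on KD1 and 1.88 on KD2, so that KD1 (-0.46) lay between NC and KD2 (-0.97, 51.1% of NC). The array held 10 spots of this probe, whose SD was between 0.03 and 0.04 log2 units on each array, a figure that covers spot error only. The PRIM1 call in KD2 was kept under all 12 other ways of processing. The filters on dim probes and the mean over its 1 probe could not have changed it. PRIM2, its partner subunit, had -0.15 and -0.51, and its 4 probes ran from -0.65 to 0.30 in KD1. POLA1, the catalytic subunit of DNA polymerase alpha, had -0.18 and -0.38, and POLA2, its accessory subunit, 0.01 and 0.11.

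No subunit of the polymerases that extend the primers was past 1.5-fold in either knockdown. Those of polymerase delta, which mainly copies the lagging strand, had changes of -0.42 and -0.47 (POLD1, the catalytic subunit), -0.46 and -0.53 (POLD2) and -0.48 and -0.25 (POLD3). Those of polymerase epsilon, which mainly copies the leading strand, had -0.25 and 0.04 (POLE, the catalytic subunit) and 0.17 and -0.56 (POLE2). A dimmer POLE probe gave -0.74 and -0.44. POLD2 and POLE2 were the members just short of 1.5-fold in KD2.

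None of the clamp and clamp loader genes was past 1.5-fold, and their changes went both ways, from -0.17 to 0.12 in KD1 and from -0.35 to 0.45 in KD2. PCNA, the clamp that holds polymerases on DNA, had changes of 0.08 and 0.18, and its probes lay between 0.08 and 0.24 over both knockdowns. The clamp loader subunits had 0.12 and 0.34 (RFC1), -0.08 and -0.18 (RFC2), 0.03 and 0.45 (RFC3), -0.17 and -0.35 (RFC4) and -0.10 and -0.12 (RFC5). In each knockdown 3 of the 6 genes had a change below 0 and 3 above. FEN1, the flap nuclease that trims Okazaki fragments, had -0.20 and -0.34, and LIG1, the ligase that joins them, -0.48 and -0.09.

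Of the proteins that coat single-stranded DNA, RPA1, the largest subunit, was lower past 1.5-fold in KD2. Its log2 signal went from 5.36 on NC to 5.23 on KD1 and 4.69 on KD2, changes of -0.13 and -0.67. KD1 was thus near NC and KD2 had 63.1% of the NC signal. The call was kept under 7 of 12 other ways of processing, and a dimmer RPA1 probe gave -0.30 and -0.09. RPA2 had changes of -0.02 and -0.06, and RPA3 of -0.01 and -0.32.

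KD1 and KD2 were also set against each other, the comparison that does not use the NC array. Of the 44 genes, 3 were higher in KD1 past 1.5-fold and none was lower, where 9.84% and 8.85% of 19544 genes were. CDC6 was 1.77-fold higher in KD1 than in KD2, POLE2 1.65-fold and ORC3 1.56-fold. POLE2 had a log2 signal of 0.48 on NC, 0.64 on KD1 and -0.08 on KD2. For all 3 the KD2 value was the lowest of the 3 arrays. With normexp background correction CDC6 (0.34) and POLE2 (0.580) fell short of the fold, and ORC3 fell short under 4 of 12 other ways of processing. RPA1 (0.54) and GINS2 (-0.52) were just short of it. The median difference was 0.03, beside 0.02 for all genes.

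The 4 genes lower in KD1 were MCM5, CDT1, CDC7 and DBF4. The 7 lower in KD2 were MCM5, PRIM1, ORC3, DBF4, ORC5, RPA1 and CDT1. With a fold of 2, MCM5 and CDT1 were left in KD1, where 3.33% of all genes were lower past that fold, and MCM5 in KD2, where 2.51% were. Counts this small are about what the background gives for 44 genes. The call of MCM5 was kept in both knockdowns under all 12 other ways of processing, and so were those of PRIM1 and ORC3 in KD2. The other 3 calls in KD1 and 4 in KD2 were lost under at least 1 of them, and no called change turned its direction. Among the 12, the filters on dim probes could change no call of these genes.

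Both counts of direction depended on the scaling between arrays. With spike-in scaling, 1 gene was lower and 13 were higher in KD1, where 1.97% of all genes were lower and 48.4% higher. In KD2 the same scaling gave 3 lower and 4 higher, where 3.64% and 22.4% of all genes were. The unscaled deposited values gave 2 lower and 5 higher in KD1, beside 3.58% and 32.5% of all genes. Median scaling gave 4 lower and 1 higher in KD1, beside 9.28% and 17.0%, and 15 lower and none higher in KD2, beside 18.1% and 6.05%. Under each of these scalings the share of the 44 genes on the higher side was thus below that of all genes. Each in effect applies 1 factor per array and keeps the order of the changes, so these shares do not count as separate evidence. The absence of genes on the higher side is therefore a statement relative to other genes on the same array.

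**Figure D5:**
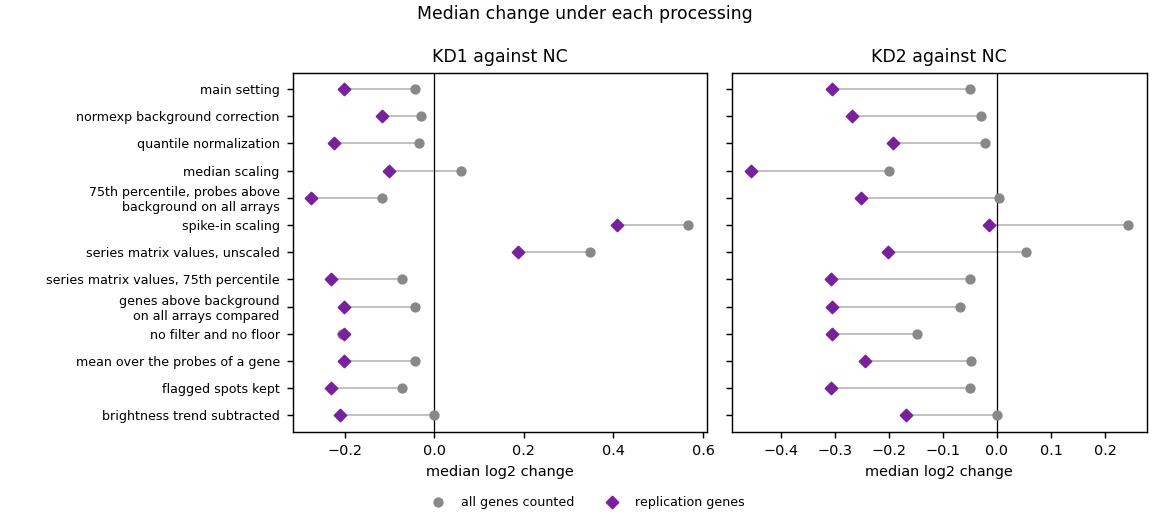
Median log2 change against NC (x axis) of the 44 replication genes (diamonds) and of all genes counted (circles) for the main setting and 12 other ways of processing the arrays. Both medians move together when the arrays are rescaled, and the diamond lies left of the circle by 0.16 in KD1 and 0.26 in KD2 in the main setting, while in KD1 without a filter on dim probes the marks nearly coincide at -0.20 and -0.21.

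Of 40 other genes of replication forks, checkpoints and chromatin assembly on the arrays, 5 were lower and 4 higher past 1.5-fold in KD1, and 3 of 39 were lower and 4 higher in KD2. The shares of all genes were 12.8% and 13.2% in KD1 and 10.7% and 9.56% in KD2, so these counts are near or under the background. Their medians, -0.07 and -0.08, were close to those of all genes. CLSPN (claspin), which links stalled forks to the checkpoint kinase, had a log2 signal of 1.72 on NC, 0.43 on KD1 and 1.48 on KD2. It was thus lower in KD1 (-1.29) and not past 1.5-fold in KD2 (-0.24). The helicase-nuclease DNA2 (-0.82) and the clamp unloader ATAD5 (-0.78) were lower in KD1, where SUPT16H, a subunit of the histone chaperone FACT (0.82), KIAA0101, the PCNA-associated factor (0.76), and DNMT1, the maintenance DNA methyltransferase (0.72), were higher. In KD2 the ribonuclease subunit RNASEH2B (-1.05), the polymerase epsilon subunit POLE4 (-0.70) and the topoisomerase TOP2A (-0.64) were lower, and the fork protection protein TIPIN (0.67), the alternative clamp loader subunit CHTF8 (0.65) and SUPT16H (0.63) were higher.

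Of 20 genes for E2F factors, retinoblastoma proteins and the DREAM complex, 3 were lower and 3 higher in KD1, and 1 was lower and 2 were higher in KD2. These counts too are near the shares of all genes given above, and the genes past the fold are named as a description. In KD1 the lower ones were E2F2 (-0.89), an activating factor, RBL2 (-0.80), a retinoblastoma-related pocket protein, and E2F7 (-0.66), a repressing factor. The higher ones were LIN9 (1.01), a core DREAM subunit, RB1 (0.96), the retinoblastoma protein, and E2F3 (0.77), an activating factor. LIN9 (0.69) and E2F3 (0.66) were also higher in KD2. E2F5, a repressing factor, had a log2 signal of -0.10 on NC, -0.11 on KD1 and -2.07 on KD2. It was thus near NC in KD1 and lower in KD2, a change of -1.97.

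Promoter windows of 300 bases, 250 before and 50 after the start, were given for 38 of the 44 genes, and not for POLD3, MCM4, RPA3, GINS4, MCM5 and RPA2. They were searched on both strands. An E2F match (TTTCCCGC, TTTGGCGC, TTTCGCGC or TTTGCCGC) was found for 20 of the 38 genes, or 52.6%, and for 3.99% of all 27305 genes in the same table. A CCAAT box (CCAAT) was found for 22 genes, or 57.9%, against 39.7%, and a GC box (GGGCGG) for 29, or 76.3%, against 48.3%. The E2F variant GGCGGGAA, added after the CDT1 promoter had been seen, can overlap the first E2F motif and was found for 9 genes, or 23.7%, against 3.79%. The CHR element (TTTGAA) was found for DBF4 alone, within the 50 bases after its start, against 18.2% of all genes. The windows of the replication genes held a median of 64.2% G and C, beside 58.7% over all windows, which bears on how often such letters occur. The median count of C followed by G was 30 in these windows, beside 14 over all windows. Every E2F motif searched holds that pair of letters.

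The changes of the genes with and without an E2F match overlapped. The 20 genes with a match had a median change of -0.19 in KD1 and -0.19 in KD2, and the 18 without had -0.27 and -0.35. Those without include PRIM1, RFC2 and RFC4, which held the E2F variant. For that variant the 9 genes with a match had medians of -0.46 in KD1 and -0.18 in KD2. The 29 without it had -0.18 and -0.34, so the order differed between the knockdowns. CDT1 had a match and changes of -1.06 and -0.61, while GINS3 had a match and changes of 0.43 and 0.35. For the CCAAT box the medians were -0.25 and -0.24 with a match and -0.16 and -0.34 without.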

How the data were processed

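RNA of 3 HCT116 samples was labelled with Cy3 and hybridised to 1 Agilent SurePrint array each. The slide and the scan were the same for all of them. The authors deposited scanner files in which Feature Extraction 10.7.1.1, per the file headers, had turned each spot into a fluorescence intensity, background-corrected within the array and not scaled between arrays. A deposited value table, the series matrix, gives each probe's processed intensity averaged over its spots, also unscaled, and served as an alternative. Probe positions are hg19.

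Control spots and spots marked non-uniform or as population outliers were left out, spots of a probe were averaged as log2 intensity, and the 75th percentile of the non-control probes was subtracted array by array. The KD1 array had 141 non-control spots marked non-uniform, beside 6 on NC and 5 on KD2. Population outliers numbered 80 on KD1, 61 on NC and 82 on KD2. A gene was counted where at least 1 of the arrays compared had its brightest probe well above background. A dim value was raised to the lowest signal well above background on its array where it lay under it. No value of a replication gene needed this. With 1 array per group no test was run, and the number of arrays limits the precision.

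The members and gene lists were chosen with earlier results of these data known. Named were all members, PRMT1, and per comparison up to 6 genes past the fold from each wider list. Of the wider lists, KIAA0101 is the array's name for PCLAF. There were 14 alternatives: normexp correction of the background with an offset of 50, quantile normalization, scaling to the median, a 75th percentile restricted to probes detected on every array, scaling to 8 E1A spike-in probes, the series matrix values unscaled and scaled, a stricter and no filter on dim probes, the mean over a gene's probes, outlier-marked spots kept, a running median of 501 genes of like brightness subtracted, a fold of 2, and the mean in place of the median. The counting was checked on simulated data. Promoters came from a RefSeq table of GRCh38.p14. Normexp was run with limma 3.58.1 in R 4.3.3, and all else in Python 3.11.15 with pandas 2.3.3, numpy 2.4.6 and matplotlib 3.10.9.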

Additional observations from a re-analysis of the deposited data

How the results depend on the processing

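In KD1 against NC, 4 genes were lower and none higher in the main setting. The counts were 4 and 1 with median scaling (17.0% of all genes higher), 8 and 0 with a 75th percentile restricted to probes detected on every array (16.4% lower), 1 and 13 with spike-in scaling (48.4% of all genes higher), 2 and 5 with the unscaled series matrix values (32.5% higher), and 2 and 0 with a fold of 2. In KD2 against NC, 7 were lower and none higher, and the counts were 15 and 0 with median scaling (18.1% lower), 3 and 4 with spike-in scaling (22.4% higher), and 1 and 0 with a fold of 2. In KD1 against KD2, none was lower and 3 were higher. The counts were 1 and 2 with quantile normalization, with that restricted percentile and with the brightness trend subtracted. Of all genes, 8.30%, 13.3% and 7.52% were lower under these settings, and 8.90%, 6.11% and 9.47% were higher. The counts were 0 and 7 with median scaling (22.05% higher) and 0 and 0 with a fold of 2. With spike-in scaling and with the unscaled values they were 0 and 9 (27.0% and 24.7% higher). The median change moved most with spike-in scaling, to 0.41 in KD1, -0.014 in KD2 and 0.35 between the knockdowns, and with the unscaled values, to 0.19 in KD1 and 0.32 between the knockdowns. These settings differ from the main one by 1 factor per array, which moved the median of all genes by 0.61 in KD1 and 0.29 in KD2 (spike-in), by 0.39 and 0.10 (unscaled values) and by 0.10 and -0.15 (median scaling). Relative to all genes, the median of the replication genes ran over the alternatives from -0.21 to 0.00 in KD1 and from -0.26 to -0.16 in KD2. The value nearest 0 in KD1 came with no filter on dim probes, which added probes not above background to the genes counted. PRMT1 ranged from -3.33 to -2.65 in KD1 and from -4.71 to -4.27 in KD2. No paired analysis was possible because each group had 1 array.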
